A study of Homo sapiens with 11 samples.

Results

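The genes examined here encode the H3K4 methyltransferase complexes. They were taken by name, as 6 catalytic subunits (KMT2A, KMT2B, KMT2C, KMT2D, SETD1A and SETD1B) and 4 core subunits (ASH2L, WDR5, RBBP5 and DPY30), and the rule itself uses no measured value, though earlier results of these data were known when the genes were chosen. All 10 were listed among the 28252 genes of the RNA-Seq data and among the 26237 promoters of the ChIP-Seq data. The study asked whether gene expression and chromatin changes caused by nickel outlast the exposure.

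The cells were of 2 human epithelial lines. RT4 is a line from a bladder papilloma, and its RNA-Seq data had 2 libraries each of untreated cells (UT), cells after 6 weeks in 100 μM NiCl2 (Ni-E) and cells that were then grown for 2 weeks in medium without nickel (Ni-W). BEAS-2B is an immortalized, non-tumorigenic bronchial epithelial line, and its H3K4me3 ChIP-Seq data had 1 library for each of the same 3 conditions, with the same dose and length of exposure. The BEAS-2B Ni-W cells were a single population, picked at random among populations grown from separated colonies, and had been in culture for more than 6 months after the exposure, so that colony, time in culture and past exposure cannot be told apart. The labels call the second RT4 library of each condition a duplicate, and the study's methods describe the RNA as coming from biological replicates. Neither says whether these were grown or exposed separately, so that p-values measure the spread between these libraries.

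Methylation of lysine 4 of histone H3 (H3K4) is written by SET domain enzymes that work in complexes. Each enzyme binds a shared core of WDR5, RBBP5, ASH2L and DPY30, which raises its activity, and partners that differ between complexes bring it to its sites. SETD1A and SETD1B, with CXXC1 and WDR82, are known for much of the trimethylation at active promoters, KMT2A and KMT2B work with menin at promoters of developmental and other genes, and KMT2C and KMT2D, with the demethylase KDM6A, are known for monomethylation at enhancers. H3K4me3 is found at the start sites of active genes, most of all at those rich in CpG dinucleotides. Mutations of KMT2C, KMT2D and KDM6A are frequent in bladder cancer.

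The promoters of KMT2A, KMT2B, KMT2D and RBBP5 are shown because the ChIP-Seq results turn on them. In UT cells, KMT2A had the most H3K4me3 of the 10 promoters and KMT2D the least. In Ni-W vs UT, with levels divided by the library median, KMT2B had the lowest score, close to that of SETD1B. RBBP5 was among those within counting error, while as deposited all 10 were past it. The sequences are the RefSeq reference on GRCh38.p14, 5′ to 3′, upstream of the start site and of every transcript of the gene in GENCODE version 44. Capitals mark each CG, a motif that reads the same on both strands. On GRCh38, KMT2A lies on chromosome 11 from 118436456 to 118526832, KMT2B on chromosome 19 from 35717973 to 35738880, KMT2D on chromosome 12 from 49018975 to 49060794 and RBBP5 on chromosome 1 from 205086142 to 205122015, so that each run is the flank just outside the gene.
KMT2A (chr11:118436242-118436455, plus strand): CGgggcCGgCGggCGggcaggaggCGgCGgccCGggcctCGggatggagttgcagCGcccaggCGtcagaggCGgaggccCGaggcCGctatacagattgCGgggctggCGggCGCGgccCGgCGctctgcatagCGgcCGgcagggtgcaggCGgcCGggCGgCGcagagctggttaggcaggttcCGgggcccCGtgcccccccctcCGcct
KMT2B (chr19:35717753-35717972, plus strand): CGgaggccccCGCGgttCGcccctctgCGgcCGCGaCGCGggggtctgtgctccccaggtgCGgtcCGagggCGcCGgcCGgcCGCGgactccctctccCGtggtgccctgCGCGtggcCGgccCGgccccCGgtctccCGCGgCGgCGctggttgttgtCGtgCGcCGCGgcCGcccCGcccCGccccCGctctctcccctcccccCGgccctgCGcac
KMT2D (chr12:49060795-49061044, minus strand): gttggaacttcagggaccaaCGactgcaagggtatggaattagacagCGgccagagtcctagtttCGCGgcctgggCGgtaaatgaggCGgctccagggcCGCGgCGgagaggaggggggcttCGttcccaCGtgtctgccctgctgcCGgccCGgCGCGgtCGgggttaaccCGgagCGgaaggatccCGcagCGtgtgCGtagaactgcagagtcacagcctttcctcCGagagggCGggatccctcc
RBBP5 (chr1:205122016-205122228, minus strand): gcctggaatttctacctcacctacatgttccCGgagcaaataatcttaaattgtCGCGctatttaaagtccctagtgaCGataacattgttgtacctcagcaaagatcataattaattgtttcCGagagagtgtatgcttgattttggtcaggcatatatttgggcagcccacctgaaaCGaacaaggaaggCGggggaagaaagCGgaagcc
The runs hold 28 CG in 214 bases for KMT2A, 36 in 220 for KMT2B, 23 in 250 for KMT2D and 8 in 213 for RBBP5. Over the full 250 bases before the RefSeq start, KMT2A had 31 CG, KMT2B 40, KMT2C 48, KMT2D and SETD1A 23 each, and RBBP5 12. Among 35116 RefSeq windows of this length the median was 11 CG, and 93.9% held at least 1. KMT2C had more CG than 99.7% of the windows, KMT2D more than 74.2% and RBBP5 more than 51.5%. WDR5 had 4 listed starts, with 2, 9, 23 and 39 CG. In all, 7 of the 10 genes matched an entry, and SETD1B, DPY30 and ASH2L did not. The CG counts describe the windows only, and KMT2A and KMT2D, at the ends of the order by H3K4me3, both lay above the median.

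RT4 cells expressed all 10 genes. The labelled cell type was checked first. In UT and Ni-W libraries, 13 of 13 urothelial markers were at 1 TPM (a level scaled to depth and transcript length) or more, and in Ni-E libraries 12 of 13 were, with the summed level between 13320 and 17220 TPM and KRT7, a keratin, as the most abundant by the mean of the 6 libraries (KRT19, another keratin, was above it in both UT libraries). The exception was KRT20, a keratin of mature urothelial cells, at 11.1 and 11.3 TPM in UT, 0.25 and 0.11 in Ni-E and 1.59 and 1.37 in Ni-W cells. KRT20 fell in Ni-E vs UT, with a log2 fold change of −6.03 (adjusted p = 0.0085, edgeR quasi-likelihood test with Benjamini-Hochberg adjustment). It also fell in Ni-W vs UT, with −2.97 (adjusted p = 0.0294, same test). The Ni-W vs UT call was lost with only the 2 groups compared, where no gene was called. UPK1A, a uroplakin of the urothelial surface, fell in Ni-E vs UT with −2.27 (adjusted p = 0.0377). Of 9 markers of blood, fibroblast and endothelial cells, CD3E and DCN were at 0 in all 6 libraries and PTPRC was at 0.04 TPM or less. Their summed level was 10.96 and 9.31 TPM in UT, 18.6 and 14.1 in Ni-E and 20.2 and 16.4 in Ni-W libraries, most of it CD68, a marker of macrophages. CD68 was at 7.33 and 7.3 TPM in UT, 13.0 and 10.6 in Ni-E and 13.4 and 13.3 in Ni-W libraries. The fibroblast gene COL3A1 was at 0.84 and 0.26 in UT, 4.13 and 2.18 in Ni-E and 4.55 and 1.48 in Ni-W libraries. Neither passed edgeR's quasi-likelihood test, with adjusted p of 0.323 and 0.147 in Ni-E vs UT and 0.295 and 0.25 in Ni-W vs UT, though the UT libraries were the lowest for both. Other markers went the other way. COL1A1, also a fibroblast gene, had log2 fold changes of −0.28 ± 0.44 (SE) in Ni-E vs UT and −0.27 ± 0.44 in Ni-W vs UT. The endothelial gene VWF had −0.85 ± 0.41 and −0.26 ± 0.40. The part of these markers in the results below was not tested. In bulk RNA, fewer cells of a type and less RNA per cell cannot be told apart.

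The libraries differed in depth. Total expected counts were 18065667 and 25721265 in UT, 18280556 and 27736454 in Ni-E and 17075833 and 26543400 in Ni-W cells, so that the first replicate of each condition was the shallower. A difference between replicates that ran with the depth of the library, described below, was as large as or larger than the differences between conditions for several of the genes.

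Among the enzymes that work with menin, KMT2A was at 16.5 and 8.09 TPM in UT, 22.0 and 11.2 in Ni-E and 23.0 and 8.08 in Ni-W cells. The first replicate was the higher in each condition, and the groups overlapped. KMT2B was at 27.7 and 23.1 TPM in UT, 28.4 and 20.1 in Ni-E and 27.7 and 20.2 in Ni-W cells, again with the first replicate higher and with overlapping groups.

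Of the enzymes linked to enhancers, KMT2C was at 8.03 and 2.88 TPM in UT, 10.9 and 4.50 in Ni-E and 14.0 and 2.93 in Ni-W cells. Its 2 replicates lay further apart than those of any other of the 10 genes on the log2 scale, and no condition stood clear of another. KMT2D was at 20.4 and 12.4 TPM in UT, 24.6 and 14.3 in Ni-E and 24.9 and 11.8 in Ni-W cells. The same order of replicates held, with overlap between all conditions.

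SETD1A, an enzyme of promoter trimethylation, was at 17.2 and 16.1 TPM in UT, 16.7 and 15.1 in Ni-E and 14.5 and 14.8 in Ni-W cells. Its replicates were close, and in TPM both Ni-W values lay below the other 4, while on the CPM scale the groups overlapped. SETD1B was at 18.4 and 12.2 TPM in UT, 13.7 and 9.31 in Ni-E and 20.0 and 11.1 in Ni-W cells. Each Ni-E library was below the UT and Ni-W library of the same replicate number.

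For the core, ASH2L, which with RBBP5 contacts the catalytic domain, was at 33.0 and 24.0 TPM in UT, 29.6 and 25.6 in Ni-E and 33.5 and 24.8 in Ni-W cells. WDR5, which holds the enzyme to the core, was at 46.2 and 40.4 TPM in UT, 48.0 and 43.9 in Ni-E and 49.6 and 41.5 in Ni-W cells. Both genes kept within a narrow band in which the conditions overlapped. RBBP5 was at 10.4 and 8.31 TPM in UT, 10.6 and 8.63 in Ni-E and 17.5 and 8.67 in Ni-W cells, so that 1 Ni-W library stood above the other 5. DPY30, a small subunit that binds ASH2L, was at 129.5 and 148.7 TPM in UT, 124.1 and 169.8 in Ni-E and 118 and 156.4 in Ni-W cells. Here the second replicate was the higher in each condition, and the conditions overlapped.

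**Figure D1:**
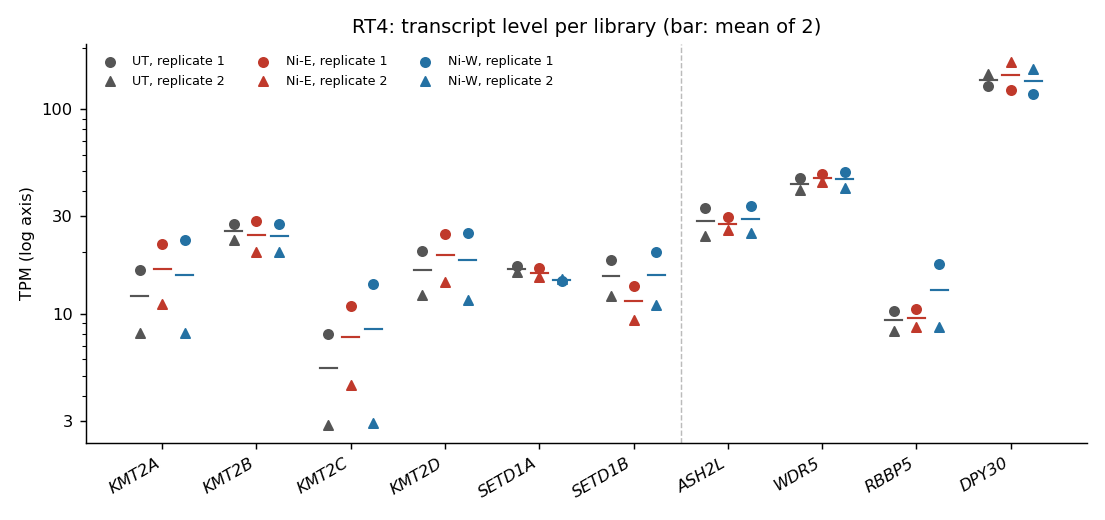
Level of the 10 genes in each RT4 library, in TPM on a log axis, for UT, Ni-E and Ni-W cells, with circles for replicate 1, triangles for replicate 2 and short bars for the mean of 2. The replicates of KMT2A, KMT2C and KMT2D are far apart in every condition, and DPY30 lies above all the others at 118 to 169.8 TPM.

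Over the 6 libraries, the mean level was 141.1 ± 20.4 TPM (SD) for DPY30, 44.9 ± 3.65 for WDR5, 28.4 ± 4.21 for ASH2L, 24.5 ± 3.89 for KMT2B, 18.1 ± 6.01 for KMT2D, 15.7 ± 1.1 for SETD1A, 14.8 ± 6.70 for KMT2A, 14.1 ± 4.22 for SETD1B, 10.7 ± 3.49 for RBBP5 and 7.21 ± 4.58 for KMT2C. By the range over all 6 libraries, only 2 steps in this order were larger than the spread: the lowest DPY30 value was above the highest WDR5 value, and the lowest WDR5 value above the highest ASH2L value. From ASH2L downwards the ranges of neighbours overlapped. Within libraries, ASH2L was above KMT2B, KMT2B above KMT2D and SETD1B above RBBP5 in all 6, whereas KMT2D was above SETD1A in 3 of the 6. Of the core subunits, 3 were thus at the top of the order and RBBP5 was next to last. Summed over the 6 enzymes, the level was 108.1 and 74.9 TPM in UT, 116.3 and 74.5 in Ni-E and 124.1 and 68.8 in Ni-W cells. For the 4 core subunits the sum was 219.1 and 221.4 in UT, 212.4 and 248 in Ni-E and 218.6 and 231.4 in Ni-W cells. Both sums overlapped between the conditions.

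None of the 10 genes was called in Ni-E vs UT, that is, at a fold change of 1.5 or more and an adjusted p below 0.05 in edgeR's quasi-likelihood test with Benjamini-Hochberg adjustment over 14502 genes, of which 2.17% were called (314). In this fit, which has no replicate block, none had an unadjusted p below 0.05 either, against 12.2% of all genes, and none was called by DESeq2, which called 5.38% of all genes. With the replicate number as a block, still none was called, against 12.6% of all genes. With the block but without the minimum fold, KMT2A, KMT2C and SETD1B had an adjusted p below 0.05 in edgeR's quasi-likelihood test (3 of 10, against 17.8% of all genes). Without the block, the log2 fold change was 0.52 ± 0.73 (SE, 2 libraries a group throughout) for KMT2C and 0.44 ± 0.48 for KMT2A. It was 0.24 ± 0.33 for KMT2D and −0.41 ± 0.26 for SETD1B, and between −0.08 and 0.08 for the other 6. The lowest adjusted p of the 10 in that fit was that of SETD1B, 0.708 in edgeR's quasi-likelihood test. The precision differed widely between the genes. The 95% interval of the log2 fold change was −1.28 to 2.32 for KMT2C and −0.75 to 1.62 for KMT2A, and −0.32 to 0.47 for WDR5 and −0.47 to 0.37 for ASH2L. Without the block, a change of 1.5-fold in either direction thus lay outside the interval for WDR5, ASH2L and KMT2B (−0.52 to 0.36). For the other 7 genes it lay inside the interval in at least 1 direction. These intervals hold the difference between replicates, and the count was not taken with the block. There, the unadjusted p of KMT2D was 0.0456 (log2 fold change 0.22), against 0.496 without it, in edgeR's quasi-likelihood test.

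Because depth ran with the replicate number, the contrast was also taken within the 3 shallower libraries and within the 3 deeper ones, as values without a test. KMT2A had a log2 fold change of 0.46 among the shallower and 0.41 among the deeper libraries, KMT2C 0.49 and 0.58, KMT2D 0.31 and 0.14, SETD1B −0.38 and −0.46, and WDR5 0.10 and 0.05. For these 5 of 10 genes the sign was the same at both depths, against 74.7% of all genes tested, and the other 5 changed sign. On the log2 CPM scale (counts scaled to library depth), the Ni-E libraries did not overlap with the UT libraries for 2 of the 10 genes, SETD1B (lower) and WDR5 (higher), against 39.6% of all genes.

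In Ni-W vs UT, again none of the 10 genes was called, against 0.6% of all genes (87), none had an unadjusted p below 0.05 in the fit without a replicate block, against 9.12%, and none was called by DESeq2, against 3.33%. With the replicate number as a block, KMT2C and RBBP5 had unadjusted p-values of 0.0434 and 0.0458 in edgeR's quasi-likelihood test. Their adjusted values by the same test were 0.181 and 0.186. With the block, 11.7% of all genes and none of the 10 had an adjusted p below 0.05. The share of all genes with an unadjusted p below 0.05 was not computed with the block in any contrast. Without the block, the largest log2 fold changes were 0.52 ± 0.73 for KMT2C and 0.39 ± 0.25 for RBBP5. RBBP5 had the lowest adjusted p in that fit, 0.899 in edgeR's quasi-likelihood test. KMT2A was at 0.24 ± 0.48 and SETD1A at −0.22 ± 0.21, and the other 6 lay between −0.15 and 0.08. RBBP5 was at 0.64 among the shallower and 0.07 among the deeper libraries. KMT2C, with 0.69 and 0.04, and KMT2A, with 0.37 and 0.01, also differed mainly among the shallower libraries. At both depths KMT2B was lower, at −0.11 and −0.19, and so was SETD1A, at −0.36 and −0.11. In all, 5 of 10 genes kept their sign, against 69.7% of all genes. The groups did not overlap on the log2 CPM scale for 2 of the 10 genes, KMT2B (lower) and RBBP5 (higher), against 29.2% of all genes.

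In Ni-W vs Ni-E, edgeR's quasi-likelihood test called none of the 10 genes and 0% of all genes. Unadjusted p-values below 0.05 were found, without a replicate block, for none of the 10 and for 5.57% of all genes, and DESeq2 called none of the 10 and 1.12% of all genes. With the block, SETD1B had an unadjusted p of 0.00846 and an adjusted p of 0.0963 in edgeR's quasi-likelihood test. In that fit, 5.88% of all genes and none of the 10 had an adjusted p below 0.05. SETD1B had a log2 fold change of 0.36 ± 0.26, with 0.39 among the shallower and 0.32 among the deeper libraries, and RBBP5 0.35 ± 0.25, with 0.56 and 0.08. KMT2A was at −0.20 ± 0.48, with −0.09 and −0.40. KMT2C was at 0.00 ± 0.73, with 0.20 among the shallower and −0.55 among the deeper libraries. The sign was the same at both depths for 7 of the 10 genes, against 52.3% of all genes. On the log2 CPM scale the groups overlapped for all 10 genes, while 25.4% of all genes had groups without overlap.

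The 3 contrasts share their libraries, so that their values are set side by side without a test of likeness. For SETD1B they were −0.41 in Ni-E vs UT, −0.05 in Ni-W vs UT and 0.36 in Ni-W vs Ni-E. The Ni-E level was below both others at either depth. For KMT2C the values were 0.52, 0.52 and 0.00, and for RBBP5 0.04, 0.39 and 0.35. The median over the 6 enzymes was 0.08 in Ni-E vs UT, 0.01 in Ni-W vs UT and −0.11 in Ni-W vs Ni-E, and over the 4 core subunits 0.05, 0.00 and −0.02. Over all tested genes the medians were −0.01, 0.00 and 0.02.

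**Figure D2:**
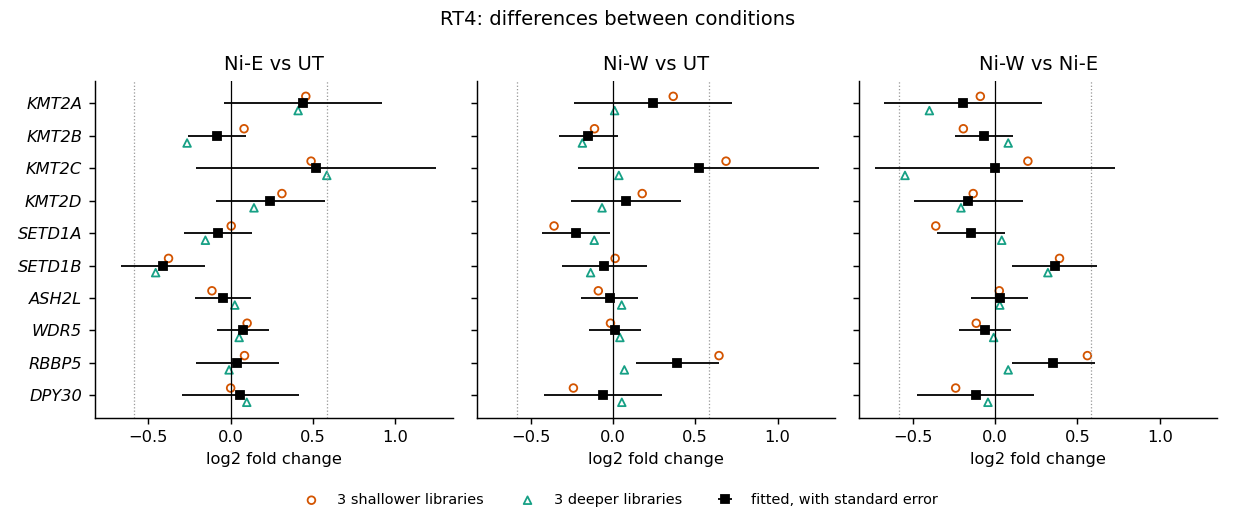
Log2 fold change of the 10 genes in the 3 RT4 contrasts, as fitted (squares, with the standard error as bars) and within the 3 shallower (circles) or 3 deeper libraries (triangles); dotted lines mark 1.5-fold. All fitted values lie inside the dotted lines, and those of KMT2C have the widest bars.

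The replicates differed in a way that set long transcripts apart from short ones. On the log2 CPM scale, the second replicate over the first, as the mean of the 3 conditions, was −1.40 for KMT2C, −0.90 for KMT2A, −0.59 for KMT2D, −0.39 for SETD1B, −0.28 for RBBP5, −0.13 for KMT2B, −0.10 for ASH2L, 0.07 for WDR5, 0.20 for SETD1A and 0.62 for DPY30. KMT2C was thus 2.63-fold higher in the first replicates, lower in this measure than all but 1.24% of the genes, and DPY30 1.54-fold higher in the second replicates, above 90.4% of the genes. The sign was the same in all 3 conditions for 9 of the 10 genes, and only KMT2B changed sign. It was negative for KMT2A, KMT2C, KMT2D, SETD1B, ASH2L and RBBP5 and positive for SETD1A, WDR5 and DPY30. In TPM, by contrast, the first replicate was the higher in each condition for WDR5 and KMT2B, and in UT and Ni-E for SETD1A. The share of all genes that kept their sign on the log2 CPM scale was not computed. Among all tested genes, the median was 0.53 for the 1378 genes with an effective length (the transcript length usable for reads) under 1000 bases, 0.01 between 2000 and 4000, −0.40 between 6000 and 12000, and −0.48 for the 196 genes of 12000 bases or more. KMT2A, KMT2C and KMT2D are in the longest class and DPY30 in the shortest. SETD1A, between 4000 and 6000 bases, was at 0.20 where the median of its class was −0.26. The median was −0.49 for the 6 enzymes and −0.41 for the 1953 other genes of at least 6000 bases. A like trend was present in Ni-E vs UT and in Ni-W vs UT. The median log2 fold change of these 1953 genes was 0.10 and 0.14 there, beside 0.08 and 0.01 for the enzymes. In Ni-W vs Ni-E it was 0.04, beside −0.11 for the enzymes. The part of transcript length, depth or RNA quality in these values was not tested.

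**Figure D3:**
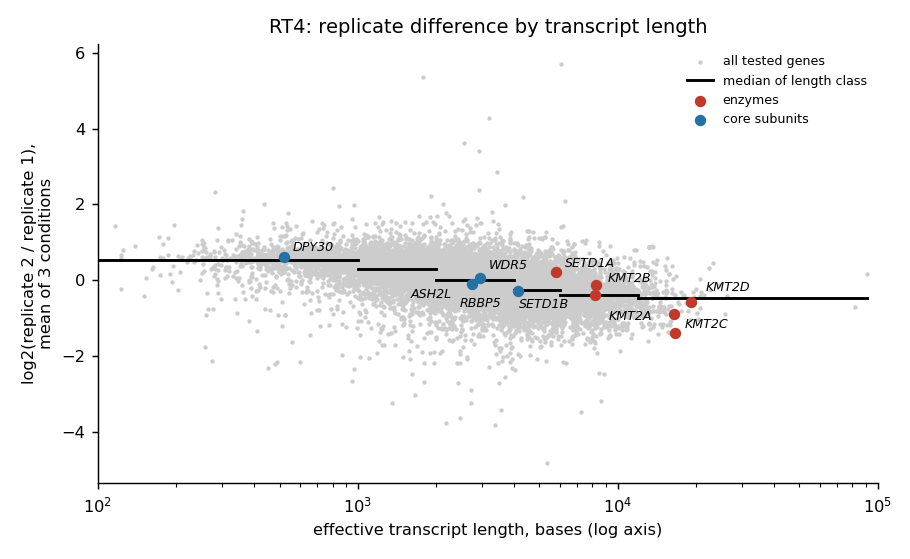
Log2 ratio of the second to the first RT4 replicate, as the mean of 3 conditions, against effective transcript length on a log axis, for all tested genes but 10 under 100 bases (grey), the 6 enzymes (red) and the 4 core subunits (blue), with black lines for the median of each length class. The class medians go from 0.53 for the shortest to −0.48 for the longest transcripts, and KMT2A, KMT2C and KMT2D lie below their class median.

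The genes whose profile over the 6 libraries was most like the mean profile of the enzymes were TP53BP2 (Pearson r = 0.9978), PM20D2 (0.9977) and ZNF808 (0.9971), among 11131 genes with at least 5 CPM. Of these genes, 1540 had r over 0.9 with the enzymes. For the core subunits they were THAP6 (0.9951), ZCCHC9 (0.993) and SULT2A1 (0.9889), and 129 genes had r over 0.9. These are descriptions over 6 points that share the difference between replicates. The enzyme profile was 0.17, 0.33 and 0.30 in the first replicates of UT, Ni-E and Ni-W and −0.26, −0.21 and −0.33 in the second, as centred log2 CPM, so that it separated the replicates and not the conditions.

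Other genes of the pathway did not pass the test either. Of the partners that belong to single complexes, such as menin (MEN1), CXXC1 and KDM6A, 13 of 13 were tested and none was called in any of the 3 contrasts, where 2.17%, 0.6% and 0% of all genes were. At these shares a count of 0 in a list of this length says little, and this holds for each list here. The most abundant was WDR82, a partner of SETD1A and SETD1B, with a mean of 75.3 TPM and log2 fold changes of 0.01 ± 0.27 in Ni-E vs UT and 0.10 ± 0.27 in Ni-W vs UT. These 13 genes had a median of 0.01 in Ni-E vs UT and 0.00 in Ni-W vs UT. Nor was any of the 5 H3K4 demethylases called. KDM1A, which removes mono- and dimethylation, was the most abundant, with 81.4 TPM and a log2 fold change of −0.07 ± 0.15 in Ni-E vs UT, and the list's median was 0.08. Of other SET proteins linked to H3K4, 4 of 5 were tested, with medians of 0.19 in Ni-E vs UT and 0.23 in Ni-W vs UT and none called. SMYD3 was the most abundant at 37.4 TPM, and PRDM9, a methyltransferase of meiotic cells, was listed at 0 in all libraries. For these 3 lists, leaving the 10 genes themselves aside, no member had an unadjusted p below 0.05, against 12.2%, 9.12% and 5.57% of all genes in the 3 contrasts.

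Ubiquitination of histone H2B by RNF20 and RNF40, helped by the PAF complex, is known to stimulate H3K4 methylation. None of 11 genes of this group was called, beside the same small shares of all genes (2.17% in Ni-E vs UT), with medians of 0.09 in Ni-E vs UT and 0.07 in Ni-W vs UT, and PAF1 was the most abundant at 124.6 TPM. Of 12 readers of H3K4me3, none was called and the medians were −0.07 and −0.08. SGF29, a SAGA subunit, was the most abundant at 31.1 TPM. The reader ING5, named after its values were seen, had an unadjusted p of 0.0413 in Ni-E vs UT in the model over all genes, with a log2 fold change of −0.43 and an adjusted p of 0.369 in edgeR's quasi-likelihood test. Of MAT2A, MAT2B and AHCY, which make S-adenosylmethionine and clear its product, none was called. AHCY was the most abundant at 409.4 TPM.

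In BEAS-2B cells, the ChIP-Seq data give the H3K4me3 of the genes' own promoters, as RPKM (reads scaled to window length and library depth) over 2 kb on each side of the start site. The values are whole multiples of 1 step in each library, which gave depths of 28385725 reads for UT, 37493950 for Ni-E and 29933548 for Ni-W cells. Though the study's methods describe ChIP on 2 biological replicates, 1 library per condition was analysed. No difference between conditions thus has a replicate check, and none was tested. The Ni-W library stood apart before any gene was considered: reads in listed promoters were 37.6% of the depth in UT and 36.0% in Ni-E cells but 22.9% in Ni-W cells, and the median promoter was at 1.568, 1.387 and 1.119 RPKM. Among 9852 background promoters, under 0.6 RPKM in all libraries, the median was 0.22, 0.24 and 0.209. The 3 reads taken as the floor amount to 0.0264, 0.02 and 0.0251 RPKM. As for the cell type, the promoters of the keratins KRT7, KRT8 and KRT18 were at 7.15, 7.33 and 7.26 RPKM in UT cells. The promoters of KRT19, CDH1 and EPCAM, also epithelial markers, were lower, at 0.432, 1.02 and 2.21. Those of KRT5 and TP63, markers of basal bronchial cells, were near the background at 0.22 and 0.388, and that of the collagen gene COL1A1 was at 8.74, while the leukocyte gene PTPRC was at 0.

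Of the 10 promoters, 9 carried H3K4me3 well above the background in every library. KMT2A was at 14.8 RPKM in UT (1678 reads, 95% Wilson interval 14.1 to 15.5), 14.7 in Ni-E and 7.56 in Ni-W cells, with 99%, 99.3% and 96.9% of all promoters below it. KMT2B was at 11.3, 10.4 and 5.15 RPKM. Both had about the same level in UT and Ni-E cells and a lower one in Ni-W cells. KMT2C was at 8.92, 9.02 and 6.30, and SETD1A at 7.76, 7.32 and 4.001. SETD1B was at 14.4, 13.7 and 7.02 RPKM, next to KMT2A in the order. KMT2D was the exception, at 1.17 RPKM in UT (133 reads, interval 0.989 to 1.39), 1.17 in Ni-E and 0.518 in Ni-W cells (62 reads, 0.404 to 0.664). With 48.1% of all promoters below it in UT cells it was near the middle of the order, while its RNA in RT4 cells had a mean of 18.1 TPM. The start site that the authors used for each window is not given in the sources used here.

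Among the core subunits, WDR5 was at 11.3 RPKM in UT, 10.0 in Ni-E and 6.82 in Ni-W cells. RBBP5 was at 8.05, 7.84 and 5.35, ASH2L at 7.13, 7.14 and 3.37, and DPY30 at 5.41, 5.35 and 2.88. DPY30, the first of the 10 genes by RNA level in RT4 cells, thus had the second lowest H3K4me3 in BEAS-2B cells. These are different lines and the 2 measures were not compared within one. As intervals cover counting error only, the Ni-W interval lay below the UT interval for all 10 promoters as deposited. The same count was not taken over other promoters.

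**Figure D4:**
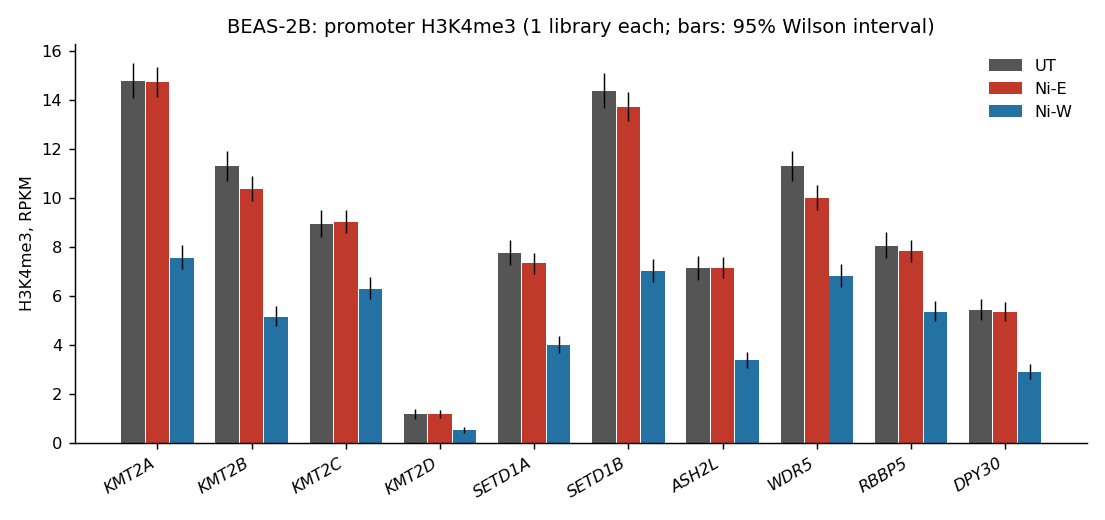
H3K4me3 at the promoters of the 10 genes in BEAS-2B cells, in RPKM as deposited, with 1 library for each condition and bars for the 95% Wilson interval of the reads. The Ni-W bar is the lowest for each gene, and KMT2D, at 1.17 RPKM in UT cells, is far below the others.

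Since the Ni-W library was lower over most promoters, the levels were divided by the library median and compared by the chromatin dynamic score (CDS), the difference of the square roots of the scaled levels. Counting error gives the score a standard error of 0.0572 in Ni-W vs UT, and a score is called past counting error outside the 95% range. All 10 genes had a score below 0 in Ni-W vs UT, and 8 were past counting error. The share of other promoters past counting error was not computed for any contrast or scaling. Such counts thus do not set the 10 genes apart. KMT2B was at −0.54, SETD1B at −0.52, KMT2A at −0.47, ASH2L at −0.40, SETD1A at −0.33, DPY30 at −0.25, WDR5 at −0.21 and KMT2D at −0.18. KMT2C, at −0.01, and RBBP5, at −0.08, were within counting error. As a fold, 3 of the 10 genes were at least 1.5-fold lower after scaling, against 18.4% of the 14127 promoters with at least 1 RPKM in any library: KMT2D (1.61-fold), KMT2B (1.56-fold) and ASH2L (1.51-fold). As deposited, 9 of the 10 were at least 1.5-fold lower, against 71% of these promoters, from 1.504-fold for RBBP5 to 2.26-fold for KMT2D, and KMT2C was 1.42-fold lower.

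The score of a promoter ran with its level, so that the genes were set beside promoters of a like level. The median score in Ni-W vs UT was −0.29 for the 10 genes, with −0.40 for the enzymes and −0.23 for the core subunits. It was −0.03 for all other promoters and −0.20 for the 13500 others with a mean level between the lowest and the highest of the 10. Without KMT2D, whose low level widens that range, the medians were −0.33 for the 9 genes and −0.25 for 8049 others. Of the promoters in the wider range, 21.2% had a score above 0, and of the 10 genes none did. Within the genes, KMT2B and WDR5 had the same level in UT cells, 11.3 RPKM, with 1281 reads each, but 617 and 816 reads in Ni-W cells.

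**Figure D5:**
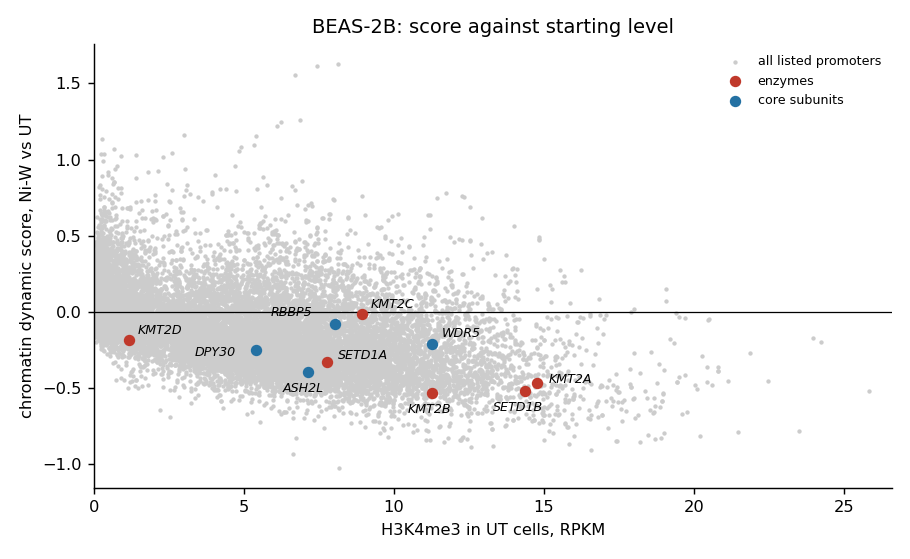
Chromatin dynamic score of Ni-W vs UT against the H3K4me3 level in UT cells, in RPKM, for all listed promoters (grey), the 6 enzymes (red) and the 4 core subunits (blue) in BEAS-2B cells. The 10 genes lie at or below 0, from −0.01 for KMT2C to −0.54 for KMT2B, inside the cloud of promoters of a like level.

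In Ni-W vs Ni-E the standard error of the score is 0.0554, and all 10 genes were below 0 and past counting error, from −0.18 for KMT2C to −0.66 for KMT2A, while of promoters in the range of levels 16.1% were above 0. The median was −0.38, against −0.07 over all other promoters and −0.27 in the range of levels. After scaling, 5 of the 10 were at least 1.5-fold lower, against 30.3% of the promoters with at least 1 RPKM: KMT2D (1.82-fold), ASH2L (1.71-fold), KMT2B (1.62-fold), SETD1B (1.58-fold) and KMT2A (1.57-fold). As deposited there were 7 of 10, against 63.8%.

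In Ni-E vs UT, with a standard error of 0.0511, all 10 genes had a score above 0 and 6 were past counting error. KMT2A was at 0.19, KMT2C at 0.16, ASH2L at 0.14, SETD1B at 0.12, and RBBP5 and DPY30 at 0.11 each, while WDR5 was at 0.00. None was 1.5-fold higher or lower, against 1.01% of promoters higher and 0.595% lower. The median was 0.11, against 0.05 over all other promoters and 0.07 in the range of levels, where 77.8% of promoters were above 0. As deposited, the sign turned and 8 of the 10 were below 0, with a median score of −0.02.

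The scaling set the size and, for some genes, the sign of these scores. In Ni-W vs UT, all 10 genes were below 0 both with the library median and as deposited, 8 with quantile normalization and 7 with the median over promoters of at least 1 RPKM, and the genes past 1.5-fold lower were 3, 9, 1 and 0. Under the last scaling, the 10 genes had a median of −0.06 and the range of levels one of 0.00. In Ni-W vs Ni-E, 10, 10, 7 and 7 of the genes were below 0. The counts past counting error moved too, with the standard error taken on each scale (none was computed for quantile normalization). In Ni-E vs UT they went from 6 higher to 2 lower as deposited and 1 lower with the median over promoters of at least 1 RPKM, with 0 higher in both. With this last median, 5 genes were past it lower and 2 higher in Ni-W vs UT, and 5 lower and 3 higher in Ni-W vs Ni-E. The 7 genes below 0 under all 4 scalings in Ni-W vs UT were KMT2A, KMT2B, KMT2D, SETD1A, SETD1B, ASH2L and DPY30, and KMT2C, RBBP5 and WDR5 were above 0 under at least 1. Library, colony and condition cannot be told apart here.

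For the other genes of the pathway, the counts in Ni-W vs UT are to be read beside the promoters with at least 1 RPKM in any library, of which 22% had a score above 0, 18.4% were at least 1.5-fold lower and 4.39% higher. Here none of the 13 partners was above 0, with a median of −0.25 and none 1.5-fold lower, and 1 of 5 H3K4 demethylases was above 0, with a median of −0.32. Of 11 genes of H2B ubiquitination and the PAF complex, 4 were above 0, with a median of −0.14. Among 12 readers, 3 were above 0, with a median of −0.21, and 2 were at least 1.5-fold lower and 1 higher. None of the 5 other SET proteins was above 0, with a median of −0.12, where PRDM9 was under 1 RPKM in all libraries. Of the 3 genes of S-adenosylmethionine supply, 1 was above 0, with a median of −0.11, where AHCY was under 1 RPKM. The median of the 10 genes, −0.29, lay between those of the demethylases and the partners.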

How the data were processed

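The deposited RNA-Seq files hold RSEM expected counts, TPM and FPKM (not used here) for 28252 genes, made by the authors. The submitters' processing notes name GRCh38 (hg38) and STAR, while the paper's methods name hg19, so that no coordinates were tied to them. Expected counts were rounded and tested with edgeR 4.0.16 (R 4.3.3; TMM, filterByExpr, quasi-likelihood) in 1 model of the 3 groups, with Benjamini-Hochberg adjustment over the 14502 genes kept, all 10 members among them. Genes at 1.5-fold and adjusted p below 0.05 were called. limma 3.58.1 on log2(TPM + 1), where folds of low genes are understated, and DESeq2 1.42.0 were alternatives. No row without a gene name entered.

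For ChIP-Seq, the authors aligned reads with BWA to hg38 and deposited RPKM for each promoter window, without peak calling. Reads were recovered from the RPKM steps, 100% of values being whole within rounding. Intervals are 95% Wilson intervals, without molecular identifiers and for counting error only. The score follows the formula in the paper.

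The members and the pathway lists were chosen with earlier results of these data known. The text names all 10 members, the 3 genes most like each profile, and of each pathway list the genes called and the most abundant one, with markers that moved. The contrasts within depth classes, the range of levels without KMT2D and the block without a minimum fold were added after seeing the data. Replicates of a condition differed by 41.3 to 125 times the counting variance (chi-square per degree of freedom), more than 1 library deposited in duplicate would, and this does not tell biological from technical repeats. On simulated counts for Ni-E vs UT, 192 of 200 genes changed 4-fold were recovered, with 7 false calls among 14324 genes. No smaller change was simulated, so that recovery near the 1.5-fold threshold is not known. Promoter sequences are from RefSeq (GRCh38.p14). Python 3.11.15 with numpy 2.4.6, pandas 2.3.3 and matplotlib 3.10.9 did the rest. Input libraries were not analysed here.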

Additional observations from a re-analysis of the deposited data

How the results depend on the processing

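Without a replicate block, the RT4 data give wide intervals for the longest enzymes, with 2 libraries a group and 3 residual degrees of freedom. The BEAS-2B data have no replicate, and their scores move with the scaling. None of the 10 genes was called in any contrast with another normalization, filter or tool, with only the 2 groups compared, or without any 1 library. The cause of the shifts below was not tested.

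Over all genes, the calls in Ni-E vs UT were 780 with DESeq2, 209 with at least 10 counts in every sample, and 177, 185 and 205 with limma on log2(TPM + 1), with 0.1 added, and without a filter, beside 314. In Ni-W vs UT they were 483 with DESeq2, 193 without a filter, 54 with at least 10 counts and 0 with only the 2 groups compared, beside 87. In Ni-W vs Ni-E they were 162 with DESeq2, 14 without a filter and 8 with limma at 0.1 TPM, beside 0. Leaving out each library in turn gave 0 to 320 genes in Ni-E vs UT, 0 to 38 in Ni-W vs UT and 0 in Ni-W vs Ni-E. The 0 for Ni-E vs UT came without the first or the second Ni-E library, with 44 and 18 without the first and second UT library. For Ni-W vs UT it came without the second UT library or either Ni-E library, with 2, 32 and 38 without the first UT, the first Ni-W and the second Ni-W library. The lone library left in a group is assumed to vary like the others.

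Replicate numbers come from a suffix in the titles and pair samples by number only. Deviations of same-numbered libraries correlated at r = 0.657, 0.764 and 0.689 for the 3 pairs of conditions over 14502 genes, which are not independent replicates. With a replicate block, 1833, 1243 and 655 genes were called in Ni-E vs UT, Ni-W vs UT and Ni-W vs Ni-E, and none of the 10. With the block and no minimum fold, 2579, 1693 and 853 genes passed, and 3 of the 10 in Ni-E vs UT: KMT2A (log2 fold change 0.43, adjusted p = 0.0226), SETD1B (−0.42, 0.0242) and KMT2C (0.54, 0.0491), by edgeR's quasi-likelihood test, beside 17.8% of all genes. None of the 10 passed in the other contrasts.

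The log2 fold change turned sign in Ni-W vs UT for ASH2L with limma (0.0351, 0.0363 and 0.0351), and in Ni-W vs Ni-E for KMT2C with at least 10 counts (−0.0008035), with the replicate block (−0.15) and with limma (−0.079, −0.13 and −0.079). Leaving out 1 library sets 1 depth against the mean of both, so that the difference between replicates enters these values. In Ni-E vs UT they were −0.0273 to 0.87 for KMT2A, −0.26 to 0.08 for KMT2B, −0.15 to 1.25 for KMT2C, −0.11 to 0.52 for KMT2D, −0.16 to 0.0118 for SETD1A, −0.14 to 0.0523 for ASH2L, −0.0411 to 0.11 for RBBP5 and −0.27 to 0.32 for DPY30. In Ni-W vs UT it gave −0.42 to 0.70 for KMT2A, −0.69 to 1.25 for KMT2C, −0.30 to 0.39 for KMT2D, −0.30 to 0.16 for SETD1B, −0.11 to 0.08 for ASH2L, −0.0466 to 0.0796 for WDR5 and −0.51 to 0.29 for DPY30. In Ni-W vs Ni-E it gave −0.85 to 0.27 for KMT2A, −0.23 to 0.12 for KMT2B, −1.20 to 0.67 for KMT2C, −0.54 to 0.18 for KMT2D, −0.37 to 0.0619 for SETD1A, −0.12 to 0.011 for WDR5 and −0.56 to 0.23 for DPY30.

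For H3K4me3, without scaling, with quantile normalization and with the median over promoters of at least 1 RPKM, the median score of the 10 genes was −0.0204, 0.0223 and 0.0075 in Ni-E vs UT, −0.61, −0.15 and −0.0575 in Ni-W vs UT, and −0.53, −0.16 and −0.056 in Ni-W vs Ni-E. The genes past 1.5-fold were 9, 1 and 0 in Ni-W vs UT, and 1 and 0 in Ni-W vs Ni-E with quantile normalization and the last median. Without scaling, the Ni-E vs UT score turned below 0 for 8 of the 10 genes. It was −0.0059 for KMT2A, −0.071 for SETD1B, −0.0305 for RBBP5 and −0.0103 for DPY30. The others were WDR5, KMT2B, SETD1A and KMT2D, with log2 ratios as deposited of −0.17, −0.12, −0.084 and −0.0049. In the same contrast, 4 of the 10 were below 0 with quantile normalization and 4 with the last median. SETD1B was at −0.019 and −0.0061 under these. In Ni-W vs UT, KMT2C, RBBP5 and WDR5 were above 0 with the last median, WDR5 at 0.0326. In Ni-W vs Ni-E, KMT2C, WDR5 and RBBP5 were at 0.13, 0.095 and 0.11 with quantile normalization and 0.098, 0.087 and 0.078 with the last median. The log2 ratio and 0.1 RPKM added to each level kept the direction of the medians and the counts within 1.5 times.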
